A study of Mus musculus with 24 samples.

Results

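Myc, Ccnd2, Gnl3, Igf2bp1, Hmga2 and Zfp36l1 are regulators of growth and proliferation, and their transcripts were measured by 20 of 15360 probes in mouse embryos 1 h after a brief heat shock. They are 6 of 6970 genes named on the arrays. A probe was taken as a member where the platform annotation gave it exactly 1 symbol and that symbol was 1 of these 6, out of 9684 probes with 1 symbol. The genes themselves were chosen by their log ratios of heat shock against control in an earlier analysis of the same arrays, all of which lay on the same side. Their values in that contrast are therefore a description, and no single p is given for them. Calls at an adjusted p under 0.05 are counted further below, and nothing is supported by the values or the calls.

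Heat-shocked embryos had spent 15 min at 43 °C and a further 1 h at 37 °C. Control embryos stayed in culture at 37 °C throughout. Each of 24 arrays carried total RNA of whole heat-shocked embryos in one channel and of control embryos in the other, from 3 numbered treatments. Every treatment was run on 2 slide types with different probes, on 4 arrays per slide type, 2 for each assignment of the RNAs to the channels, with and without a suffix B in the slide code. The labels also name a later harvest and a drug exposure, which are not analysed here. Neither strain nor embryo age is given in the sources used here, nor whether the treatments used separate litters, so the spread between treatments may be technical.

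Myc is a transcription factor that pairs with Max and promotes cell growth and division, and its short-lived mRNA follows growth signals closely. Cyclin D2, the product of Ccnd2, activates the kinases that phosphorylate Rb and is itself a known target of Myc. Gnl3 encodes nucleostemin, a nucleolar GTPase of dividing stem and progenitor cells. Igf2bp1 encodes an embryonic RNA-binding protein that stabilises mRNAs including that of Myc, and Hmga2 encodes an architectural chromatin protein of embryonic tissues that is kept low by let-7 microRNAs. Zfp36l1 encodes a zinc finger protein that binds AU-rich elements and speeds the decay of the mRNAs that carry them.

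The deposited values are log ratios of the channels whose log base and numerator are not stated. The sign was turned where channel 2 held the heat-shocked RNA, and the median over all probes was subtracted from each array, so 0 stands for the median probe. On this scale 1 unit is 2-fold if the log is base 2 and 2.72-fold if it is natural. The heat-inducible chaperone gene Hsph1 read 2.28 ± 0.50 on slide type 1, and Hspb1, which encodes a small heat shock protein, read 2.23 ± 0.05 on slide type 2 (SD, n = 3 treatments). The immediate early genes Jun (slide type 1) and Egr1 (slide type 2) read 1.97 ± 0.33 and 1.74 ± 0.72 (SD, n = 3). A negative value is thus on the side opposite to these 4 genes. The absolute direction remains a convention.

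The promoters of Gnl3, Hmga2 and Zfp36l1 are shown because these genes lay on the same side in the arrays, and they are the 3 of 6 members that matched the RefSeq promoter table. Each sequence is the 250 bases before the gene's start in build GRCm38.p6, on the minus strand: chr14:31019132-31019381 for Gnl3, chr10:120476470-120476719 for Hmga2 and chr12:80113014-80113263 for Zfp36l1. Capitals mark any match on either strand to CACGTG (the E-box of Myc and Max), to GAANNTTC or TTCNNGAA (paired units of the heat shock element), to GGGCGG (the GC box), to TATAAA (the TATA box) or to CCAAT.
Gnl3: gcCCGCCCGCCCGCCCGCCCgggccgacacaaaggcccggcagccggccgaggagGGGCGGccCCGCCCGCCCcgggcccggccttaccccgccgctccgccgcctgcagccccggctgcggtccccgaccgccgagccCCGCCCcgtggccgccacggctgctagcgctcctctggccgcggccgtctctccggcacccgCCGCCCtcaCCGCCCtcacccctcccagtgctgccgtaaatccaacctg
Hmga2: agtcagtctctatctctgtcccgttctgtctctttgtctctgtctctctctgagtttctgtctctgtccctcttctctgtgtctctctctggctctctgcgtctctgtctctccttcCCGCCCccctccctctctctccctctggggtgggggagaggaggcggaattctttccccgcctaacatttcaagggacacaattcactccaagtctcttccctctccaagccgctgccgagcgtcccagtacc
Zfp36l1: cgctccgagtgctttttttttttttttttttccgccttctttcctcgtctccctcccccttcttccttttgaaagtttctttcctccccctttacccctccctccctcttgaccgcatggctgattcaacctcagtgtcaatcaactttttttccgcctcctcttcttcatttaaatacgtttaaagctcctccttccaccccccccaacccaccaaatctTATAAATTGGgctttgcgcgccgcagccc
The Gnl3 window held 10 GC boxes, some overlapping each other, at a GC content of 81.6%, against a median of 52.4% over 32851 promoter windows. The Hmga2 window held 1 GC box and had a GC content of 56.4%. The Zfp36l1 window held 1 TATA box overlapping 1 CCAAT on the other strand, so their letters form 1 run of capitals, and its GC content was 48.4%. Among all windows 32.7% held GGGCGG, 12.4% held TATAAA and 33.9% held CCAAT. Shares of 6.02% held CACGTG, 6.69% held GAANNTTC and 7.17% held TTCNNGAA, and none of the 3 printed windows held any of these. A match is a string of letters and not a site known to be bound.

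All 20 member probes had negative means. On slide type 1, where Zfp36l1 had no probe, the 7 member probes ranged from −0.42 to −0.20 with a median of −0.34. The 13 member probes of slide type 2 ranged from −0.74 to −0.21 with a median of −0.49. By the convention that positive is heat shock over control, the largest size was 0.743 units at a Gnl3 probe. That is control over heat shock by 1.67-fold on a base 2 scale and 2.1-fold on a natural one. The smallest, 0.204 units at the Hmga2 probe of slide type 1, is 1.15-fold or 1.23-fold. In whole embryos, less RNA per cell and fewer cells that make it cannot be told apart.

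**Figure D1:**
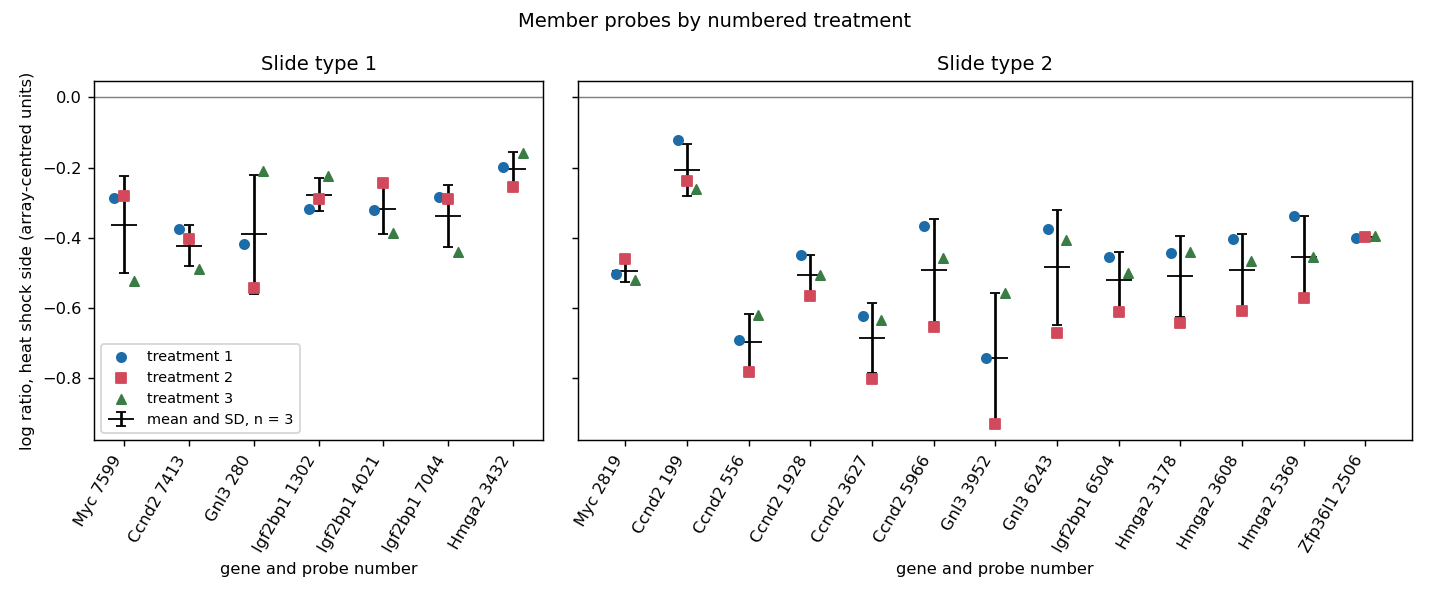
Log ratio of each member probe (y, units, arrays centred on the median probe; positive is the side of Hsph1 and Hspb1) by gene and probe number (x), for slide type 1 (left) and slide type 2 (right). Coloured symbols are the 3 treatments and black bars the mean and SD; every symbol is below 0.

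Myc was read by 1 probe on each slide type. Probe 7599 of slide type 1 gave −0.29 in treatment 1, −0.28 in treatment 2 and −0.52 in treatment 3, a mean of −0.36 ± 0.14 (SD, n = 3). Treatment 3 was the most negative, and 1 of its arrays, at −0.996, set most of that gap. Without this array, an alternative chosen after seeing the data, treatment 3 read −0.35 and the mean was −0.31 ± 0.04. Probe 2819 of slide type 2 gave −0.50, −0.46 and −0.52 in treatments 1 to 3, a mean of −0.49 ± 0.03 (SD, n = 3). Here the 3 treatments lay close together. By channel order, the 6 arrays of probe 7599 with heat-shocked RNA in channel 1 ranged from −0.42 to −0.15 (median −0.26), and the 6 with it in channel 2 from −0.996 to −0.28 (median −0.39). For probe 2819 they ranged from −0.92 to 0.08 (median −0.39) and from −1.05 to −0.01 (median −0.65). Pooled over treatments, the channel orders overlapped for both probes, and 23 of the 24 values were negative. Within each treatment, the orders of probe 2819 did not overlap. Treatment 1 read −0.79 and −0.92 in the first order against −0.29 and −0.01 in the second. Treatment 2 ran the other way, at 0.08 and −0.13 against −1.05 and −0.74. So did treatment 3, at −0.32 and −0.47 against −0.69 and −0.60. The close treatment means of this probe thus averaged orders that differed.

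Ccnd2 had 1 probe on slide type 1 and 5 on slide type 2. Probe 7413 of slide type 1 gave −0.38, −0.40 and −0.49 in treatments 1 to 3, a mean of −0.42 ± 0.06 (SD, n = 3), the most negative member of that slide type. Probes 556 and 3627 of slide type 2 read −0.70 ± 0.08 and −0.69 ± 0.10. Over 12 arrays these probes differed by 0.048 units on average, with a Pearson r of 0.99. Probes 1928 and 5966 read less, −0.51 ± 0.06 and −0.49 ± 0.15. Probe 199 stood apart from the other 4, with −0.12, −0.24 and −0.26 in treatments 1 to 3 and a mean of −0.21 ± 0.08 (SD, n = 3). Its r with the other Ccnd2 probes over the 12 arrays lay between −0.03 and 0.09, whereas the other 4 had r between 0.86 and 0.99 among themselves. These correlations describe probes that share arrays, channel order and centring.

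Gnl3 had the widest spread between treatments on slide type 1. Its probe 280 gave −0.42 in treatment 1, −0.54 in treatment 2 and −0.21 in treatment 3, a mean of −0.39 ± 0.17 (SD, n = 3). Treatment 3 was the highest here, whereas for Myc on the same slides it was the lowest. Probe 3952 of slide type 2 gave −0.74, −0.93 and −0.56, a mean of −0.74 ± 0.19, the most negative member of all. The second probe, 6243, read −0.48 ± 0.16 (SD, n = 3), and the probes had r = 0.87 over 12 arrays. All 36 values of the 3 Gnl3 probes were negative.

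Igf2bp1 was read by 3 probes on slide type 1, with means of −0.28 ± 0.05 (probe 1302), −0.32 ± 0.07 (probe 4021) and −0.34 ± 0.09 (probe 7044; SD, n = 3 each). Probes 1302 and 7044 lay 0.061 units apart, more than the SD of the former and less than that of the latter, and r between the 3 probes was 0.58 to 0.89 over 12 arrays. Probe 6504, the only one on slide type 2, gave −0.45, −0.61 and −0.50 in treatments 1 to 3, a mean of −0.52 ± 0.08.

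Hmga2 had the smallest value on slide type 1. Probe 3432 gave −0.20, −0.25 and −0.16 in treatments 1 to 3, a mean of −0.20 ± 0.05 (SD, n = 3). Its 3 probes on slide type 2 read −0.51 ± 0.12 (probe 3178), −0.49 ± 0.11 (probe 3608) and −0.46 ± 0.12 (probe 5369). Treatment 2 was the most negative for each of these 3.

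Zfp36l1, with probe 2506 on slide type 2 alone, gave −0.40, −0.40 and −0.39 in treatments 1 to 3, a mean of −0.397 ± 0.003 (SD, n = 3). This was the smallest spread of any member, but the arrays behind it were not close. All 12 of them ran from −0.92 to 0.13, with a median of −0.32 where heat-shocked RNA was in channel 1 and −0.46 where it was in channel 2.

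Averaged over probes, the genes on slide type 1 ran from Ccnd2 (−0.42 ± 0.06) through Gnl3 (−0.39 ± 0.17), Myc (−0.36 ± 0.14) and Igf2bp1 (−0.31 ± 0.04) to Hmga2 (−0.20 ± 0.05; SD, n = 3 each). Only the last step, from Igf2bp1 to Hmga2, was larger than the SD of both neighbours. The order on slide type 2 was Gnl3 (−0.61 ± 0.17), Igf2bp1 (−0.52 ± 0.08), Ccnd2 (−0.52 ± 0.08), Myc (−0.49 ± 0.03), Hmga2 (−0.49 ± 0.11) and Zfp36l1 (−0.40 ± 0.003). No step there exceeded the larger SD of its neighbours. The order also differed between the slide types, where different probes read the same genes. Counted from the most negative of 3838 genes on slide type 1, Ccnd2 ranked 22, Gnl3 31, Myc 45, Igf2bp1 70 and Hmga2 247. Of 4075 genes on slide type 2, Gnl3 ranked 31, Igf2bp1 75, Ccnd2 78, Myc 95, Hmga2 100 and Zfp36l1 195.

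All 7 member probes of slide type 1 and all 13 of slide type 2 passed the limma test on the negative side at an adjusted p under 0.05 over all probes of the slide type. Of all 7680 probes per slide type, 5.09% were called negative and 11% positive on slide type 1, and 24.4% negative and 28.9% positive on slide type 2. Since the contrast chose the members, nothing is read from these counts. Leaving out 1 treatment removed a call from 2 members. Hmga2 probe 3432 was not called without treatment 1 (mean −0.21) or without treatment 2 (−0.18), and Ccnd2 probe 199 not without treatment 3 (−0.18). The split of all calls depended on the zero point: with arrays centred on probes with 1 symbol, 221 probes were negative and 996 positive on slide type 1, in place of 391 and 844, and 1205 and 3283 on slide type 2, in place of 1877 and 2219. Among the members 6 of 7 and 12 of 13 were then called.

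Within a treatment, the members' values differed by channel order. On slide type 1, 82 of 84 member values were negative. Averaged over the 3 treatments, all 7 probes were more negative with heat-shocked RNA in channel 2. There the median over the 7 probes was −0.42, −0.45 and −0.31 in treatments 1 to 3, against −0.14, −0.13 and −0.24 with heat-shocked RNA in channel 1. In treatment 3, 2 probes were on average less negative in channel 2. Ccnd2 probe 7413 read −0.29 and −0.55 there against −0.58 and −0.53 in channel 1. Gnl3 probe 280 read −0.30 and −0.06 against −0.24 and −0.24. On slide type 2, 139 of 156 values were negative, and treatment 2 split by channel order. With heat-shocked RNA in channel 1 its median was 0.04 and 11 of 26 values were negative. With it in channel 2 the median was −1.32 and all 26 were negative. Treatment 1 ran the other way, with medians of −0.62 and −0.30, and treatment 3 gave −0.32 and −0.61. The close means of the 3 treatments there thus averaged channel orders that lay far apart.

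**Figure D2:**
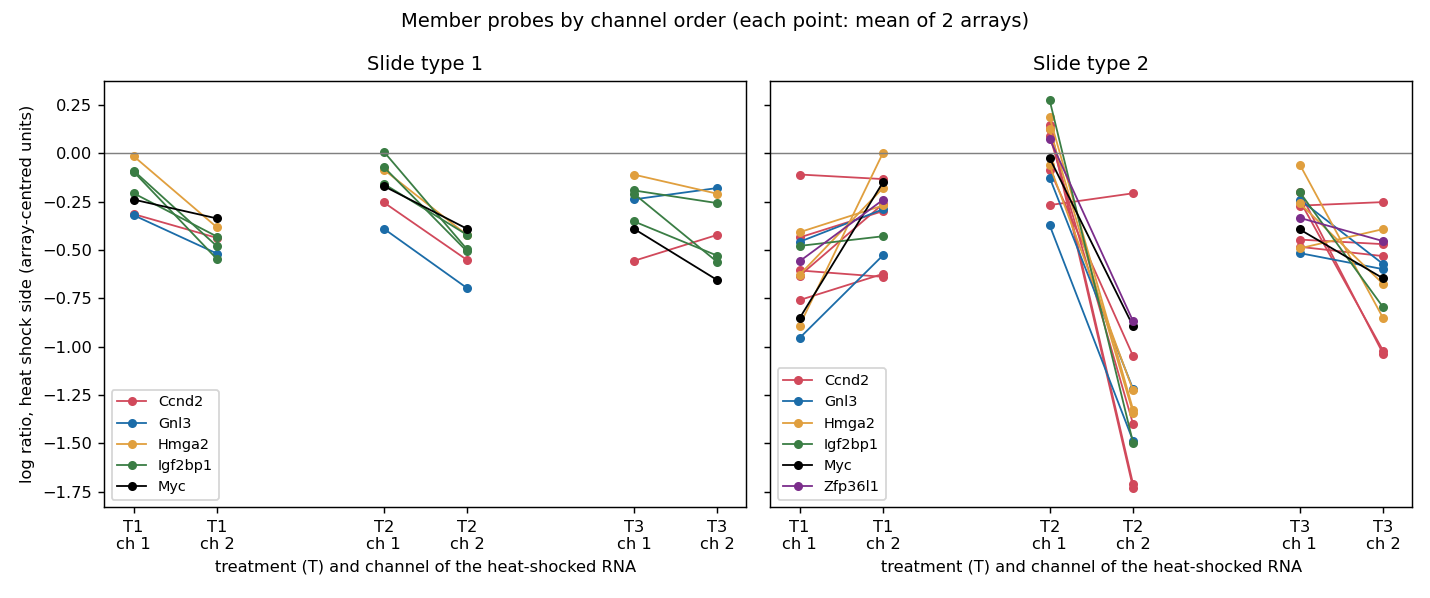
Log ratio of each member probe (y, units) with the heat-shocked RNA in channel 1 or channel 2 (x) in treatments 1 to 3, for slide type 1 (left) and slide type 2 (right). Each point is the mean of 2 arrays and each line a probe, coloured by gene; in treatment 2 of slide type 2 the probe median goes from 0.04 to −1.32.

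The difference between channel orders did not enter the choice of the members and could be tested. Of the 7 member probes on slide type 1, 1 passed (limma, adjusted over all probes), against 22.2% of all probes. That was Igf2bp1 probe 4021, which read −0.10 in the first channel order and −0.54 in the second, a difference of 0.44 ± 0.08 (SD, n = 3; limma adjusted p = 0.0266). The call was lost without treatment 1 and without treatment 2, where 0 of 7 member probes passed, against 7.04% and 16.3% of all probes. Without treatment 3, 3 passed, against 34.6%. In simulated data the test found 1 of 100 differences of 0.5 units and 54 of 100 of 1 unit on slide type 1. That simulation left 7480 of 7680 probes unchanged, whereas 22.2% of the real probes were called. Its adjusted limit was therefore stricter, and these rates do not carry over to the members. The members' differences on slide type 1 were 0.10 to 0.44 units, and those that did not pass are not shown to be without one. None of the 13 on slide type 2 passed (0 of 13), against 0.013% of all probes. For slide type 2 the simulated test found 0 of 100 differences of 1 unit, so its outcome there says nothing about the members. Without treatment 1, whose channel orders ran the other way, 4 of the 13 passed, against 17.7% of all probes.

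With a single channel order fewer member probes were called in the main contrast. From arrays with heat-shocked RNA in channel 1 alone, 3 of 7 member probes of slide type 1 were called, and 0 of 13 of slide type 2, where 14.8% and 0.169% of all probes were called negative. From those with it in channel 2 alone, 5 of 7 and 5 of 13 were called, where the shares of all probes were 3.96% and 3.07%. Nothing is read from these counts either.

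Centring moved the members more on slide type 1 than on slide type 2. Without it the median gene of slide type 1 moved from −0.04 to 0.27, and that of slide type 2 from −0.05 to 0.03. The uncentred means of the 7 member probes of slide type 1 ran from −0.12 (Ccnd2) to 0.10 (Hmga2), and those of Igf2bp1 probe 1302 and of Hmga2 were positive. None of the 7 was then called, where 0.182% of all probes were called negative. The 13 probes of slide type 2 remained negative, from −0.66 (Gnl3 probe 3952) to −0.12 (Ccnd2 probe 199), and 5 were called, where 1.76% of all probes were. The members' negative values on slide type 1 are thus relative to the median probe.

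**Figure D3:**
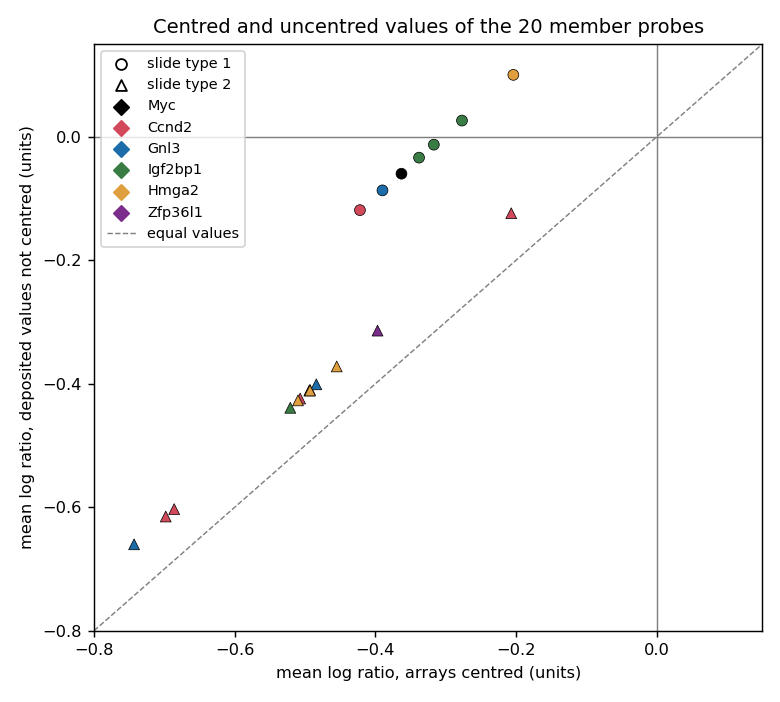
Mean log ratio of the 20 member probes after centring each array (x, units) against the mean of the deposited values without centring (y, units), with circles for slide type 1, triangles for slide type 2 and colours for genes. Slide type 1 lies further above the dashed line of equal values than slide type 2, and only 2 of its probes are above 0 without centring.

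The genes whose 12 centred values lay closest to those of Myc, by the root mean square difference, were Rbmx (0.152 units), Plxnb2 (0.153) and Msl1 (0.163) on slide type 1. Their means there were −0.37, −0.33 and −0.41, beside −0.36 for Myc. For slide type 2 they were Azin1 (0.127 units), Plxna3 (0.141) and Phf6 (0.141), with means of −0.46, −0.45 and −0.49 beside −0.49. None of the 6 was nearest on both slide types, which carry different probes.

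Other genes of the same pathways were counted in 7 lists, drawn up with earlier results of these data known. The lists hold 293 genes besides the members, of which 119 were measured on slide type 1 and 108 on slide type 2. On slide type 1, 18 were called negative and 5 positive, where 5.65% and 5.73% of all 3838 genes were called (limma, adjusted p under 0.05). Without treatment 1 these counts were 5 and 2, and without treatment 2 they were 9 and 3. Those of slide type 2 gave 55 negative and 9 positive calls, against 31.9% and 18.5% of 4075 genes, with 5 positive without treatment 1. The median of the listed genes was −0.08 on slide type 1 and −0.16 on slide type 2, beside −0.04 and −0.05 over all genes. Without centring 1 listed gene was called negative and 7 positive on slide type 1, and 5 negative and 1 positive on slide type 2. With arrays centred on probes with 1 symbol, 9 listed genes were negative and 7 positive on slide type 1, and 45 and 17 on slide type 2. With heat-shocked RNA in 1 channel alone, 0 listed genes were called on slide type 2 in either order.

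**Figure D4:**
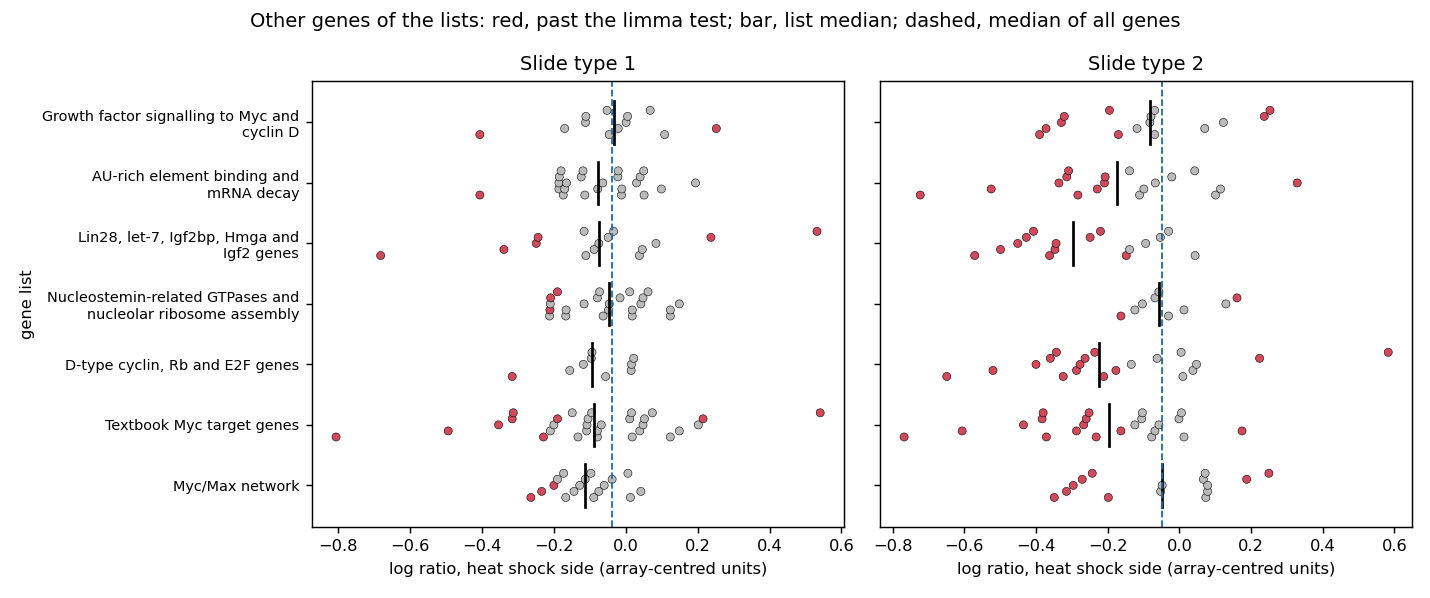
Mean log ratio (x, units) of the other genes in 7 pathway lists (y), for slide type 1 (left) and slide type 2 (right), with red points for genes past the limma test, black bars for list medians and a dashed line for the median of all genes. For slide type 2 the medians of the Lin28, let-7, Igf2bp, Hmga and Igf2 list (−0.30) and the D-type cyclin list (−0.22) lie below that line at −0.05. No Lin28 gene and no Igf2bp gene is among the genes of the former measured there.

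In the list of Myc's partners and regulators, 3 of 17 genes were negative and none positive on slide type 1 (median −0.11). These were Mycl, a Myc paralogue (−0.26 ± 0.19), the acetyltransferase gene Kat2a (−0.23 ± 0.15) and Ctcf (−0.20 ± 0.07; SD, n = 3). All 3 lost their call when any 1 treatment was left out, with means then between −0.35 and −0.17 for Mycl, −0.32 and −0.17 for Kat2a, and −0.24 and −0.17 for Ctcf. Without centring they were positive. Slide type 2 had 6 of 15 negative and 2 positive, with a median of −0.05 as over all genes. Fubp1, which binds the far upstream element of Myc, read −0.35 ± 0.10, Smarcb1 −0.32 ± 0.14, Mga, an alternative partner of Max, −0.30 ± 0.03, and Cnbp −0.27 ± 0.13. Fubp1 was at 0.02 with heat-shocked RNA in channel 1 alone.

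Among textbook Myc targets, 7 of 30 were negative and 2 positive on slide type 1 (median −0.09), and 12 of 22 negative and 1 positive on slide type 2 (median −0.20). Phb, which encodes prohibitin, passed on both, at −0.49 ± 0.09 and −0.77 ± 0.09 (SD, n = 3). The cap-binding factor gene Eif4e did too, at −0.35 ± 0.10 and −0.61 ± 0.06, though on slide type 1 it lost its call without treatment 1 (mean −0.32). The glucose transporter gene Slc2a1 was the lowest of the list on slide type 1, at −0.81 ± 0.17. The mitochondrial chaperone gene Hspd1 lay on the other side, at 0.54 ± 0.22. Prothymosin alpha (Ptma) read −0.44 ± 0.11 and Set −0.38 ± 0.16 on slide type 2.

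Around cyclin D2 and Rb, 1 of 9 genes was negative on slide type 1, namely cyclin E1 (Ccne1, −0.32 ± 0.16). It lost its call without treatment 1 (mean −0.33) and without treatment 3 (−0.23). More were measured on slide type 2, where 12 of 20 were negative and 2 positive (median −0.22). Cks2, a small subunit of cyclin-dependent kinases, read −0.65 ± 0.07, Tfdp1, the dimer partner of E2F factors, −0.52 ± 0.06, and cyclin D1 (Ccnd1) −0.40 ± 0.06. Rb1, the retinoblastoma gene whose product cyclin D kinases inactivate, was positive, at 0.58 ± 0.28 (SD, n = 3).

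In the list of nucleostemin-like GTPases and nucleolar proteins, 3 of 23 genes were negative on slide type 1 (median −0.05): Dkc1 (−0.21 ± 0.04), Rrp1b (−0.21 ± 0.07) and Mrto4 (−0.19 ± 0.01). Dkc1 and Mrto4 lost their call when any 1 treatment was left out, with means then from −0.23 to −0.19 for Dkc1 and at −0.19 for Mrto4. Rrp1b lost its call without treatment 1 (−0.20) and without treatment 2 (−0.18). Of 9 measured on slide type 2, 1 was negative and 1 positive (median −0.06). These were Pes1 (−0.16 ± 0.12), whose call was lost without treatment 1 (−0.15) and without treatment 2 (−0.11), and Dkc1 (0.16 ± 0.07), whose call was lost without treatment 1 (0.15) and without treatment 3 (0.13). The opposite signs of Dkc1 on the slide types were not stable: without centring it read 0.09 on slide type 1, as Rrp1b (0.10) and Mrto4 (0.11) also turned positive there, and on slide type 2 it read 0.65 with heat-shocked RNA in channel 1 but −0.33 in the other order.

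In the list of Lin28, Igf2bp, high mobility group and Igf2 genes, 4 of 15 were negative and 2 positive on slide type 1 (median −0.08). No Lin28 gene was measured there, and the only Igf2bp gene besides the member, Igf2bp3, read −0.11 ± 0.10 and did not pass. Hmgn2, which encodes a nucleosome-binding protein, read −0.68 ± 0.18, and Hmgb3 −0.34 ± 0.17, with its call lost without treatment 1 (−0.29). The RNA-binding protein gene Ybx1 was positive, at 0.53 ± 0.10. Slide type 2 gave 11 of 16 negative and none positive (median −0.30), and these held no Lin28 gene and no Igf2bp gene. Igfbp5, which encodes a binding protein of insulin-like growth factors, read −0.57 ± 0.07, Hmgb2 −0.50 ± 0.13, Syncrip, an RNA-binding partner of Igf2bp1, −0.45 ± 0.09, and Hmgb1 −0.43 ± 0.10 (SD, n = 3). Syncrip was also called on slide type 1 (−0.25 ± 0.10), but not without treatment 1 (−0.20) or without treatment 2 (−0.24). Ybx1 read −0.09 on slide type 2 and did not pass.

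Among AU-rich element binding and mRNA decay genes, the group of Zfp36l1, 1 of 23 was negative on slide type 1 (median −0.08), and 9 of 18 negative and 1 positive on slide type 2 (median −0.17). The deadenylase subunit gene Cnot2 read −0.72 ± 0.01 on slide type 2, Pum2 −0.53 ± 0.07 and Mapkapk2, whose kinase phosphorylates the Zfp36 proteins, −0.34 ± 0.14. Tia1, an AU-rich element binding protein gene, passed with opposite signs, at −0.41 ± 0.20 on slide type 1 and 0.33 ± 0.09 on slide type 2 (SD, n = 3), from different probes.

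In growth factor signalling, 1 of 12 genes was negative and 1 positive on slide type 1 (median −0.03). The kinase gene Akt1 read −0.41 ± 0.04, and Apc, a brake on beta-catenin, read 0.25 ± 0.06 and lost its call without treatment 1 (0.26) and without treatment 2 (0.22). On slide type 2, 6 of 15 were negative and 2 positive (median −0.08). These included Etv5, a transcription factor gene downstream of FGF signals (−0.39 ± 0.10), Akt2 (−0.37 ± 0.08), Map2k2 (−0.33 ± 0.16) and Spred1, an inhibitor of Ras signalling (−0.32 ± 0.01).

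Markers of 7 tissues were listed. Those measured were read as ratios, which carry no level, so the makeup of the embryos could not be checked. No heart muscle marker was measured on either slide type, and no neural or endothelial marker on slide type 2. Of the markers, 16 of 81 were measured on slide type 1, with 2 negative and none positive, and 10 on slide type 2, with 5 negative and none positive. Of all genes, 5.65% were negative and 5.73% positive on slide type 1, and 31.9% and 18.5% on slide type 2. The 5 negative markers of slide type 2 were Col1a1 (−0.60 ± 0.29), Col1a2 (−0.35 ± 0.14) and Col3a1 (−0.35 ± 0.17), which were the 3 mesenchymal markers measured on that slide type, with Apoc2 (−0.26 ± 0.07) and Krt18 (−0.19 ± 0.14). The 1 mesenchymal marker of slide type 1, Pdgfra, read 0.11 ± 0.14 and did not pass. Of the lists that hold Apoc2 and Krt18, 0 of 5 yolk sac and 0 of 4 trophoblast markers passed on slide type 1 (medians −0.01 and −0.08). Krt18 itself read −0.11 ± 0.15 there. On slide type 2, 0 of 5 erythroid markers passed (median −0.07). On slide type 1 the negative markers were Tubb3 (−0.21 ± 0.04) and Esam (−0.27 ± 0.15). The other neural markers there, Nes (−0.11 ± 0.05) and Otx2 (−0.17 ± 0.08), did not pass. Nor did the other endothelial marker, Cdh5 (0.05 ± 0.02). Esam did not pass without treatment 1, 2 or 3 (means from −0.34 to −0.19). Tubb3 lost its call without treatment 1 (−0.21) and without treatment 2 (−0.19), as did Krt18 on slide type 2 (−0.17 and −0.13). Without centring Tubb3 (0.094) and Esam (0.035) were positive, and Tubb3 read −0.003 with heat-shocked RNA in channel 1 alone. On slide type 2, Col1a2 read 0.03 in that order and −0.73 in the other. None of the 5 negative markers there kept its call with 1 channel order alone. The marker medians were −0.06 and −0.16, near the list medians above, and the part of tissue makeup in the members' values was not tested.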

How the data were processed

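The deposited tables hold the authors' log ratios, treated here as a score because nothing in the sources used here gives the log base, numerator, background correction or normalization. The scale therefore stays unknown, and the direction is set by convention, with positive values on the side of Hsph1, Hspb1, Jun and Egr1. Each table held 7680 probes and 12 arrays with 0 missing values, and 0 columns were left unmapped. The channel of each RNA was taken from the labels. Values of arrays with heat-shocked RNA in channel 2 were multiplied by −1, arrays were centred on their median, and the 4 arrays of a treatment were averaged, each channel order having the same weight. The 3 treatments of a slide type were then tested with limma 3.58.1 in R 4.3.3 (lmFit and eBayes on an intercept, Benjamini-Hochberg over all probes or genes of the slide type, adjusted p under 0.05). Gene values are means of probes with that 1 symbol. The number of arrays limits the precision, and spot intensities were not used.

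The members and gene lists were chosen with earlier results of these data known. Named were every member probe, up to 4 called genes per list with the largest means, 4 anchor genes and the 3 genes nearest each Myc probe. Some further genes (listed markers, and Ybx1 on slide type 2) were named after their values were seen. On simulated data, 76 of 100 changes of 0.5 units among 7680 probes of slide type 1 were recovered and 77 of 100 on slide type 2, and 8 and 4 of 7480 unchanged probes were called. More probes were called in the real data, which loosens the adjusted limit, so these rates need not hold there. Alternatives tried were no centring, centring on probes with 1 symbol, 1 channel order, arrays with or without the suffix, each treatment left out, a robust prior, and a fit of all 12 arrays of a slide type with the treatment number as a random block.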

Additional observations from a re-analysis of the deposited data

Results flagged for a closer look

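In a group of 6 arrays, Myc probe 7599 of slide type 1 had 1 array far from the others. With heat-shocked RNA in channel 2, the treatment 3 array with the suffix read −0.9962, while the other 5 lay between −0.4032 and −0.2797. Its gap to the nearest was 0.828 of the group's range, above Dixon's limit of 0.625. Of 40 such groups of member probes 1 was set apart in this way, and chance alone sets apart about 1 in 20 groups of independent values. The arrays of a group are paired by treatment and the groups share arrays, so that rate need not hold here. Without that array, the Myc mean of slide type 1 moved from −0.36 to −0.31.

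Igf2bp1 probe 4021 of slide type 1 differed between channel orders, by 0.437 units (limma adjusted p = 0.0266 over all probes of the slide type, n = 3 treatments). It read −0.10 where channel 1 held the heat-shocked RNA and −0.54 where channel 2 did. The other Igf2bp1 probes of that slide type differed in the same direction, by 0.19 units (probe 1302, limma adjusted p = 0.264) and 0.34 units (probe 7044, limma adjusted p = 0.0683), and neither passed.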

How the results depend on the processing

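None of the 20 member probes changed sign when a treatment was left out, with 1 channel order, with or without the suffix arrays, with a robust prior or under the replicate block. Without centring, Igf2bp1 probe 1302 (0.026) and Hmga2 probe 3432 (0.10) of slide type 1 turned positive, as did Mycl (0.04), Kat2a (0.07), Ctcf (0.10), Dkc1 (0.092), Rrp1b (0.10), Mrto4 (0.11) and Syncrip (0.055) there. The markers Tubb3 (0.094) and Esam (0.035) of slide type 1 turned positive too. On slide type 2, Fubp1 turned to 0.021 with heat-shocked RNA in channel 1 alone and Dkc1 to −0.33 with it in channel 2 alone. The marker Col1a2 turned to 0.03 there with heat-shocked RNA in channel 1 alone. The cause was not tested for any of these.

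Without centring, 0 of 7 and 5 of 13 members were called on the first and second slide type, and 14 and 135 probes and 5 and 65 genes were negative. On slide type 2, 422 probes and 76 genes were then positive. Of the listed genes 1 and 5 were negative on slide types 1 and 2, and 1 was positive on slide type 2. The channel order difference was then called for 4081 probes, with 6 members, on slide type 1 and for 0 on slide type 2. Centred on probes with 1 symbol, 221 and 1205 probes and 119 and 861 genes were negative, 1249 genes were positive on slide type 2, 9 listed genes were negative on slide type 1 and 17 positive on slide type 2, and the channel order difference was called for 0 members of slide type 1 and 0 probes of slide type 2.

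From heat-shocked RNA in channel 1 alone, 3 members were called on slide type 1 and 0 on slide type 2. Negative were 1140 probes and 431 genes on slide type 1 and 13 and 6 on slide type 2, and positive were 408 genes on slide type 1, and 213 probes and 44 genes on slide type 2. Of the listed genes 10 were positive on slide type 1, and 0 negative and 0 positive on slide type 2. From heat-shocked RNA in channel 2 alone, 5 members were called on slide type 2. Negative were 125 genes on slide type 1, and 236 probes and 11 genes on slide type 2. Positive were 472 probes and 69 genes on slide type 1, and 464 and 13 on slide type 2. Of the listed genes 11 were negative and 1 positive on slide type 1, and 0 and 0 on slide type 2.

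With suffix arrays alone, slide type 1 gave 196 probes and 75 genes negative, 141 genes positive, 7 listed genes negative and 2 positive, and 923 probes with a channel order difference, 0 of them members; slide type 2 gave 0 such probes. Without the suffix arrays it gave 2.

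The replicate block joined all 12 arrays of a slide type with the treatment number as a random block, whose consensus correlation was 0.07 on slide type 1 and −0.22 on slide type 2. Under this replicate block 678 probes, 473 genes and 36 listed genes were negative on slide type 1, and 2097 probes on slide type 2. The channel order difference was then called for 3124 and 1890 probes, 3 and 4 of them members, on slide types 1 and 2. It changed no call of a member in the main contrast. All arrays count there as separate samples of a treatment, which the labels do not state.

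Leaving out each treatment in turn gave 234 to 430 negative probes, 53 to 245 negative genes, 125 to 195 positive genes, 5 to 16 negative listed genes and 2 to 4 positive ones on slide type 1, where the channel order difference was called for 541 to 2656 probes and 0 to 3 members. On slide type 2 it gave 994 to 3038 positive probes, 293 to 983 positive genes, 5 to 11 positive listed genes, and 0 to 1362 probes and 0 to 4 members with a channel order difference. The member calls ranged from 6 to 7 and from 12 to 13. Negative on slide type 2 were then 1321 to 1882 of all 7680 probes.

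With 3 treatments, no spot intensities and no stated log base, dim or saturated spots and absolute folds were not assessed.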

Other observations

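The probes of 1 gene did not always read alike. Ccnd2 probe 199 of slide type 2 lay 0.48 and 0.49 units above probes 3627 and 556, and ranked 1386 of 7680 probes from the most negative, where those ranked 37 and 36. By channel order, probe 199 averaged −0.22 and −0.20, probe 3627 −0.24 and −1.13, and probe 556 −0.27 and −1.12. The Gnl3 probes of slide type 2 lay 0.26 units apart, with probe 3952 at rank 28 and probe 6243 at rank 159. The 3 Hmga2 probes there lay at most 0.055 units apart, and the 3 Igf2bp1 probes of slide type 1 at most 0.061. These values carry no test, and the array files used here do not say which stretch of a transcript a probe reads.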
